A study of Mus musculus with 2 samples.

Results

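The enzymes that hydroxylate and crosslink collagen were followed through single cells of omental tumors grown from a mouse ovarian cancer line. The group was set by name and held the lysyl oxidases Lox, Loxl1, Loxl2, Loxl3 and Loxl4, the lysyl hydroxylases Plod1, Plod2 and Plod3, and the prolyl 4-hydroxylase alpha subunits P4ha1 and P4ha2. All 10 were found, once each, among the 32285 genes of the count tables. The rule takes them by symbol and uses no measured value, and none of them is a marker of the cell classes in which they are described. The group was nonetheless chosen with earlier results of these data known.

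Collagen chains are modified in the endoplasmic reticulum before they fold. Prolyl 4-hydroxylases add hydroxyl groups to prolines, which the triple helix needs to be stable at body temperature, and lysyl hydroxylases do the same to lysines, which fixes the kind of crosslink that can form later. Once collagen has been secreted, the copper-dependent lysyl oxidases oxidise lysines and hydroxylysines so that neighbouring molecules become covalently joined. In tumors these enzymes are known from fibroblasts, from stiffened matrix and as targets of hypoxia-inducible factors, and the hydroxylases need oxygen, iron, 2-oxoglutarate and ascorbate as substrates and cofactors.

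The tumors came from KPCA, a line of mouse fallopian tube epithelial origin with engineered alterations that include mutant Trp53 and overexpressed Ccne1 and Akt2, grafted into the peritoneum of female C57BL/6J mice. In the first group, KPCA.FSTKO, the cancer cells lacked follistatin (Fst), and in the second, KPCA.FSTKO_hFSTL3, the same Fst-deficient cells also carried an expression plasmid for human FSTL3 and had been selected with geneticin as 1 stable clone. Both lines therefore lacked Fst, the host cells were wild type in both, and a single clone cannot be told apart from the transgene it carries. Each group was 1 library made from 4 pooled omental tumors taken 10 days after grafting from mice aged 12 to 16 weeks. With 1 library per group there is no replicate error and no test was made. All brackets below hold 95% intervals for counting error only, and a difference was called by size alone, when a gene had at least 100 UMIs (unique molecular identifiers, each standing for 1 captured RNA molecule) over both sides and its level differed at least 2-fold.

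Levels are given as CPM, the UMIs of a gene per 1000000 UMIs summed over all cells of a class. The KPCA.FSTKO library held 6777 barcodes after the filters with a median of 17253 UMIs, and the KPCA.FSTKO_hFSTL3 library held 4041 with a median of 15071. Cells were placed in classes by marker genes. KPCA.FSTKO gave 3967 cancer-like, 85 myofibroblast-like, 279 fibroblast-like, 44 mesothelial-like and 883 macrophage-like cells. KPCA.FSTKO_hFSTL3 gave 256, 22, 24, 13 and 139 of the same classes, while 3422 of its barcodes (84.7%) carried at least 5 raised markers of pancreatic acinar cells and were kept out as mixed. In KPCA.FSTKO 41 barcodes were mixed. RNA of acinar, erythroid, macrophage and cancer lists lay together in 81.2% of the barcodes of KPCA.FSTKO_hFSTL3 and in 11.4% of those of KPCA.FSTKO.

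That difference between the libraries bears on every comparison between them. RNA of pancreatic acinar enzymes made up 32.9 CPM of the cancer-like cells in KPCA.FSTKO and 621 CPM in KPCA.FSTKO_hFSTL3. In the other 4 classes the acinar list lay between 40.8 and 75.5 CPM in KPCA.FSTKO and between 643 and 994 CPM in KPCA.FSTKO_hFSTL3. The mesothelial-like cells also carried fibroblast markers, with a median over cells of 4007 CPM for the summed list in KPCA.FSTKO and 4198 CPM in KPCA.FSTKO_hFSTL3. Fibroblast-like cells themselves held 3976 and 6376 CPM of that list, and myofibroblast-like cells 2422 and 2369 CPM. The summed mesothelial list had medians of 899 and 841 CPM in mesothelial-like cells, against 214 and 278 CPM in fibroblast-like cells. These 3 stromal classes are therefore not sharply separated. The part that acinar RNA, mixed barcodes and shared markers have in the values below was not tested. KPCA.FSTKO is the firmer of the libraries for each class, since its cancer-like cells held 108734579 UMIs against 9704218.

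Fst itself was counted in the cancer-like cells of both libraries, at 5.22 CPM in KPCA.FSTKO and 8.55 CPM in KPCA.FSTKO_hFSTL3. The counts are of 3′ tags, which need not cover the disrupted part of the gene, so they do not check the knockout. In cells of the host Fst stood at 216 and 214 CPM in myofibroblast-like, 85.6 and 256 in fibroblast-like and 50.7 and 46.0 in mesothelial-like cells, in the same order of libraries. Counts on the mouse genome do not include the human FSTL3 transgene, which was not analysed here, while mouse Fstl3 stood at 12.5 and 9.27 CPM in cancer-like cells.

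The 10 genes fell into distinct patterns over the classes. Lox and Loxl1 were almost restricted to stromal cells, Loxl2, Loxl3, Plod2 and P4ha2 were highest in stromal cells and lower in cancer-like cells, Plod1 was low in cancer-like cells alone among the main classes, and Plod3 and P4ha1 were spread over all of them. In KPCA.FSTKO, 7 of the 10 were called higher in myofibroblast-like than in cancer-like cells and 1 lower, against 11.5% and 18.8% of all genes with enough UMIs. The median log2 ratio was 1.72 for the members and -0.21 for all genes. Fibroblast-like cells had 6 members called higher and 1 lower, against 12.8% and 16.6% of all genes, with medians of 1.38 and -0.18. Mesothelial-like cells had 5 called higher and 1 lower, against 13% and 22.3%, with medians of 1.14 and -0.23. Macrophage-like cells went the other way. There 1 member was called higher and 7 lower, against 15.8% and 30.9% of all genes, with medians of -1.61 and -0.41. The single member called lower in each stromal class was Loxl4, although its myofibroblast-like ratio of 0.471 (0.153 to 1.11) rested on 5 UMIs on that side and its interval holds 1, and its mesothelial-like count was 0, with an interval of the ratio that reaches 0.618.

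The KPCA.FSTKO_hFSTL3 library gave member medians on the same side of cancer-like cells in each class, on fewer UMIs. Of 9 members with enough UMIs, 7 were called higher in myofibroblast-like cells and 0 lower, against 10.3% and 20.9% of all genes. In fibroblast-like cells 4 of 7 were higher and 0 lower, against 10.1% and 18.6%. In mesothelial-like cells 3 of 7 were higher and 0 lower, against 12% and 20.9%. Macrophage-like cells again held more members that were lower, 3 of 6 against 25.2% of all genes, and 1 was higher against 17.4%. The members' median log2 ratios over cancer-like cells were 2.94 for myofibroblast-like, 1.34 for fibroblast-like, 0.40 for mesothelial-like and -1.19 for macrophage-like cells. Over all genes the same medians lay between -0.26 and -0.17. The member medians rest on 9, 7, 7 and 6 members, so they do not order the classes. Loxl3 and Plod1 entered the myofibroblast-like median but had too few UMIs for the fibroblast-like and mesothelial-like ones. Their log2 ratios were 3.19 and 2.93 in fibroblast-like cells and 1.84 and 2.78 in mesothelial-like cells.

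**Figure D1:**
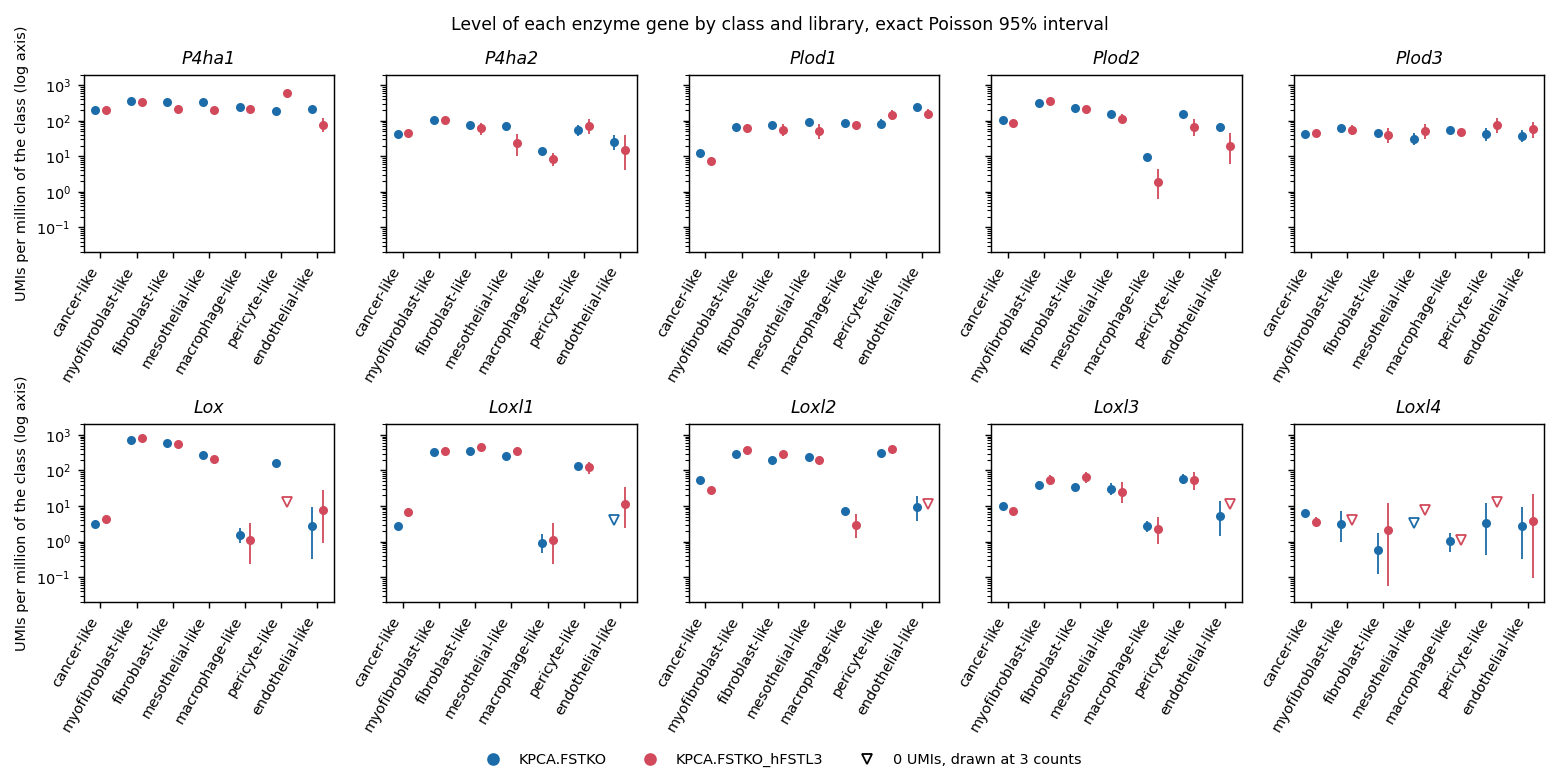
Level of each of the 10 enzymes in CPM (log axis) in the 5 main cell classes and in pericyte-like and endothelial-like cells, with KPCA.FSTKO and KPCA.FSTKO_hFSTL3 as separate points, exact Poisson 95% intervals as bars and open triangles at 3 counts where no UMI was found. Lox and Loxl1 sit near the bottom of the axis in cancer-like and macrophage-like cells and above 200 CPM in the 3 stromal classes, while P4ha1 lies between 199 and 352 CPM over the 5 main classes.

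The prolyl 4-hydroxylase alpha subunits carry the catalytic site of the enzyme and are joined to the beta subunit P4hb. P4ha1 (chr10:59323296-59373304, GRCm38, plus strand) was counted throughout the tumor. In KPCA.FSTKO it stood at 352 (324 to 382) CPM in myofibroblast-like, 337 (321 to 353) in fibroblast-like, 327 (291 to 366) in mesothelial-like, 241 (232 to 249.5) in macrophage-like and 200.7 (198 to 203) in cancer-like cells. The intervals of the 3 stromal classes overlap, so their order is not resolved, and the macrophage-like level was 1.20 (1.15 to 1.25) times the cancer-like level. In KPCA.FSTKO_hFSTL3 the levels were 329, 215, 199, 210.3 and 200.7 CPM in the same order of classes, and the intervals of the last 4 overlap. Among the 5 main classes no ratio of P4ha1 against cancer-like cells reached the 2-fold size in either library, the highest being 1.76 (1.61 to 1.91) in myofibroblast-like cells. Among classes outside the main 5, neutrophil-like cells of KPCA.FSTKO held 348 (284 to 422) CPM, as high as the myofibroblast-like cells within the intervals, and T and NK-like cells held 137 (106 to 174).

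P4ha2 (chr11:54100095-54131665, plus strand), the second alpha isoform, was more stromal. In KPCA.FSTKO it ran from 106 (90.7 to 123) CPM in myofibroblast-like cells through 76.9 (69.4 to 84.9) in fibroblast-like and 69.0 (53.1 to 88.1) in mesothelial-like to 43.4 (42.1 to 44.6) in cancer-like and 14.3 (12.2 to 16.6) in macrophage-like cells. The fibroblast-like and mesothelial-like intervals overlap, and the macrophage-like level was 0.330 (0.281 to 0.384) times the cancer-like level. In KPCA.FSTKO_hFSTL3 myofibroblast-like cells held 105 CPM, fibroblast-like 60.8, cancer-like 45.1, mesothelial-like 23.0 (10.5 to 43.6) and macrophage-like 8.26. Mesothelial-like cells thus lay above cancer-like cells in the first library, at 1.59 (1.22 to 2.03) times, and below them in the second, at 0.509 (0.231 to 0.976) times on 9 mesothelial UMIs.

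Both genes are known targets of hypoxia-inducible factors, whose core binding letters are ACGTG and GCGTG, and they are set against a hypoxia list further on. Their promoters are therefore shown, with Plod3, whose upper over lower ratio for that list in cancer-like cells of KPCA.FSTKO was 1.14 (1.06 to 1.23), for comparison. Each run gives the 250 bases before and 50 bases after the RefSeq transcript start on GRCm38.p6, written along the strand of the gene, with capitals marking ACGTG or GCGTG on either strand (read as CACGT or CACGC when on the opposite strand). The 2 motifs share CGTG, so they cannot lie on the same letters of 1 strand, and a run of CACGTG holds ACGTG on both strands. The windows are chr10:59323046-59323345 for P4ha1, chr11:54100674-54100973 for P4ha2 and chr5:136986769-136987068 for Plod3, all on the plus strand.
P4ha1: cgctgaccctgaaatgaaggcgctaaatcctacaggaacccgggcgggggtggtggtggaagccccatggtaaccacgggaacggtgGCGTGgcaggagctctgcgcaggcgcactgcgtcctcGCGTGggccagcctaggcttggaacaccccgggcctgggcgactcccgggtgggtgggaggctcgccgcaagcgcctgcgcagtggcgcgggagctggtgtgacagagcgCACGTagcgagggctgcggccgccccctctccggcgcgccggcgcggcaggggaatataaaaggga
P4ha2: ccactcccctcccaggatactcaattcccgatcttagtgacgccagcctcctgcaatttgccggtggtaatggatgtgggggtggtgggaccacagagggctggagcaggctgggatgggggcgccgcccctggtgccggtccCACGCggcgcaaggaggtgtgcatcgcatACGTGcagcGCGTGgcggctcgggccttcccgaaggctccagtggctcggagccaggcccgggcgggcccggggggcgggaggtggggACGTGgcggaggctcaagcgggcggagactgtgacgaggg
Plod3: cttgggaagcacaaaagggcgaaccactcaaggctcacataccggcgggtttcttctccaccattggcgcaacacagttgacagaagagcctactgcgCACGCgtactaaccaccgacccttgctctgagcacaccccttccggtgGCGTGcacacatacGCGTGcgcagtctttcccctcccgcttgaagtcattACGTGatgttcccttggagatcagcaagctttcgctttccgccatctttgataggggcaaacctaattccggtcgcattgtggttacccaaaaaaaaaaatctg
P4ha1 held 3 matches, P4ha2 4 and Plod3 4, so the letters alone do not set the first pair apart from Plod3. Of all 32817 promoter windows of this length, 19.6% held ACGTG, 32.4% held GCGTG and 43.8% held at least 1 of them. Promoter windows were found for 5 of the 10 members, and those of Plod1 and Loxl4 held 2 and 1 matches. A match describes the letters and says nothing about binding in these cells.

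The lysyl hydroxylases did not share an order of classes. Plod2 (chr9:92542223-92608428, plus strand) hydroxylates lysines of the collagen telopeptides and so favours hydroxylysine-derived crosslinks. It was highest in stromal cells, intermediate in cancer-like cells and nearly lacking in macrophage-like cells. In KPCA.FSTKO the levels were 311 (285 to 339) CPM in myofibroblast-like, 222 (209 to 235) in fibroblast-like, 151 (127 to 178) in mesothelial-like, 108 (106 to 110.1) in cancer-like and 9.50 (7.83 to 11.4) in macrophage-like cells. No neighbours in that order overlap, and the myofibroblast-like level was 2.88 (2.63 to 3.14) times the cancer-like level. In KPCA.FSTKO_hFSTL3 the same order held at 349.9, 221, 115, 87.3 and 1.88 CPM, with overlapping intervals of the mesothelial-like (83.8 to 154) and cancer-like cells (81.5 to 93.4).

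Plod1 (chr4:147909753-147936767, minus strand), which acts on lysines within the helix, had another order. Cancer-like cells were the lowest of the main classes, at 12.4 (11.8 to 13.1) CPM in the KPCA.FSTKO library and 7.42 (5.81 to 9.34) in the KPCA.FSTKO_hFSTL3 library. Macrophage-like cells held 86.3 (81.1 to 91.7) and 74.0 (64.0 to 85.1) CPM, which is 6.95 (6.40 to 7.55) and 9.97 (7.58 to 13.2) times as much, and Plod1 was the member called higher in macrophage-like cells in both libraries. The stromal classes lay in the same range, from 65.1 CPM in myofibroblast-like to 93.8 in mesothelial-like cells of KPCA.FSTKO, with overlapping intervals for each neighbouring pair. Endothelial-like cells were higher still, at 240.1 (206 to 278) CPM in the first library and 153 (109 to 209) in the second. These cells held 6583 CPM of basement membrane collagen genes in KPCA.FSTKO, against 56.0 in macrophage-like cells.

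Plod3 (chr5:136987019-136996648, plus strand), which also transfers sugars to hydroxylysine, changed little between classes. In KPCA.FSTKO it stood at 61.5 (50.1 to 74.7) CPM in myofibroblast-like, 55.1 (50.9 to 59.5) in macrophage-like, 45.5 (39.8 to 51.8) in fibroblast-like, 41.1 (39.9 to 42.4) in cancer-like and 31.3 (20.9 to 44.9) in mesothelial-like cells. The intervals of every neighbouring pair in that order overlap, and all ratios against cancer-like cells lay between 0.760 and 1.49. In KPCA.FSTKO_hFSTL3 they lay between 0.848 and 1.18. Exons of Plod3 overlap those of Znhit1 on the other strand, which stood at 104 CPM in cancer-like and 66.9 in myofibroblast-like cells. Counting with standard parameters, as the methods give it, takes reads of the gene's own strand only.

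The lysyl oxidases showed the strongest differences between classes. Lox, which oxidises lysines in collagen and elastin, stood in KPCA.FSTKO at 704 (664 to 746) CPM in myofibroblast-like, 579 (558 to 600.1) in fibroblast-like and 271 (238 to 306) in mesothelial-like cells. Cancer-like cells held 3.17 (2.85 to 3.53) and macrophage-like cells 1.51 (0.897 to 2.39) CPM. None of these intervals overlap, and the ratios against cancer-like cells were 222 (197 to 251), 182 (163 to 205) and 85.3 (72.2 to 101) for the 3 stromal classes. These folds rest on a very low cancer-like level. Over the alternatives they ran from 6.22 to 12.74 on the log2 scale in myofibroblast-like and from 6.10 to 12.55 in fibroblast-like cells. The low ends came from the mean of per-cell CPM, and the high ends from leaving out the 5% of barcodes with most UMIs of the gene. That trim selects on the gene itself and removes most of the few cancer-like UMIs. It raises the fold by construction, so the high ends are no check of it. In KPCA.FSTKO_hFSTL3 the levels were 837 (773 to 905) CPM in myofibroblast-like, 549 (483 to 621) in fibroblast-like and 204 (162 to 254) in mesothelial-like cells, against 4.22 in cancer-like and 1.13 in macrophage-like cells. A single barcode held 36.6% of the Lox UMIs of the myofibroblast-like cells there, against 7.61% in KPCA.FSTKO. With the top barcode of each library left out the myofibroblast-like levels were 581 CPM in KPCA.FSTKO_hFSTL3 and 662 in KPCA.FSTKO. The log2 ratios in the second library ran from 4.97 to 9.35 in myofibroblast-like and from 3.67 to 9.29 in fibroblast-like cells. The same trim was among the alternatives there.

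The shares of cells with a UMI of Lox were also far higher in myofibroblast-like and fibroblast-like than in cancer-like cells, but did not follow the CPM between the former pair. With every cell thinned to 2000 UMIs, Lox was found in 42.5% (31.5 to 54.1%) of myofibroblast-like and 49.8% (43.7 to 55.9%) of fibroblast-like cells of KPCA.FSTKO, with overlapping intervals, so no order of these classes is read from the shares. In cancer-like cells it was found in 0.889% (0.613 to 1.25%), in macrophage-like cells in 0.363% (0.0750 to 1.06%) and in T and NK-like cells, which should lack it, in 1.37% (0.0347 to 7.40%). The last of these is 1 of 73 cells, too few to set a background level, so how much of the low cancer-like and macrophage-like shares was free RNA was not tested. Before thinning the shares were 77.6%, 80.6%, 5.22%, 1.81% and 4.05%, at median depths of 19576, 17041, 26024, 12745 and 4825 UMIs. A single barcode held 20.3% of all Lox UMIs of cancer-like cells. Exons of Lox overlap those of AC161119.1 on the other strand, which stood at 10.3 CPM in myofibroblast-like and 10.5 CPM in cancer-like cells, where it was above Lox itself. Its part in the Lox counts was not tested.

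Loxl1 (chr9:58287738-58313186, minus strand), known for its role in elastic fibers, shared this pattern but not its peak. In KPCA.FSTKO fibroblast-like cells held 361 (345 to 378) CPM, myofibroblast-like 321 (294 to 349) and mesothelial-like 263 (231 to 298), and neighbouring intervals overlap. Cancer-like cells held 2.82 (2.52 to 3.16) and macrophage-like cells 0.925 (0.462 to 1.65) CPM. In KPCA.FSTKO_hFSTL3 fibroblast-like, mesothelial-like and myofibroblast-like cells held 447, 360.1 and 343 CPM against 6.90 in cancer-like and 1.13 in macrophage-like cells. Fibroblast-like cells were 128 (113 to 145) times the cancer-like level in the first library and 64.8 (48.9 to 86.6) times in the second. Over the alternatives these folds ran from 6.24 to 12.14 on the log2 scale in the first library. In the second they ran from 3.55 to 8.43. As for Lox, the alternatives included the trim of the barcodes with most UMIs of the gene. That trim selects on the gene itself and raises the fold by construction where the cancer-like level is this low. The high ends are therefore no check of the fold.

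Loxl2 (chr14:69609068-69695834, plus strand), known for crosslinking basement membrane collagen IV, had a cancer-like level well above that of macrophage-like cells. In KPCA.FSTKO it stood at 289.7 (264 to 317) CPM in myofibroblast-like, 246 (215 to 279.8) in mesothelial-like, 200.7 (188 to 213) in fibroblast-like, 55.1 (53.7 to 56.5) in cancer-like and 7.31 (5.86 to 9.02) in macrophage-like cells. The myofibroblast-like and mesothelial-like intervals overlap, and no other neighbours in that order do. Pericyte-like cells lay within the interval of the myofibroblast-like ones, at 314 (270.4 to 362) CPM. In KPCA.FSTKO_hFSTL3 the levels were 371 CPM in myofibroblast-like, 299 in fibroblast-like, 197 in mesothelial-like, 28.3 in cancer-like and 3.0 in macrophage-like cells. With cells thinned to 2000 UMIs, Loxl2 was found in 10.5% (9.56 to 11.6%) of cancer-like cells of KPCA.FSTKO against 0.726% (0.267 to 1.57%) of macrophage-like cells. T and NK-like cells gave 4.11% (0.856 to 11.5%), an interval that holds the cancer-like share. Exons of Loxl2 overlap those of Gm27177, which had at most 7 UMIs in any of the 5 classes.

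Loxl3 (chr6:83034173-83052562, plus strand) and Loxl4 (chr19:42593982-42612813, minus strand) were the least counted oxidases. Loxl3 stood at 38.3 (29.5 to 49.1) CPM in myofibroblast-like, 33.8 (28.9 to 39.3) in fibroblast-like, 30.2 (20.1 to 43.6) in mesothelial-like, 10.2 (9.59 to 10.8) in cancer-like and 2.77 (1.91 to 3.90) in macrophage-like cells of KPCA.FSTKO. The 3 stromal intervals overlap and lie above that of cancer-like cells. In KPCA.FSTKO_hFSTL3 the levels were 54.6, 65.1, 25.5, 7.11 and 2.25 CPM in the same order of classes. Its exons overlap those of Htra2, a gene on the other strand with 34.4 CPM in cancer-like and 26.2 CPM in myofibroblast-like cells. Loxl4 was the only member with its highest level of the 5 classes in cancer-like cells, at 6.46 (5.99 to 6.95) CPM in the first library and 3.61 (2.51 to 5.02) in the second. It gave 5 UMIs in myofibroblast-like, 3 in fibroblast-like, 12 in macrophage-like and 0 in mesothelial-like cells of KPCA.FSTKO, and the count of 0 among 927707 UMIs allows a level of up to 3.23 CPM. The interval of that ratio reaches 0.618, so a difference of 2-fold from cancer-like cells is not resolved. In KPCA.FSTKO_hFSTL3 the count was 0 in myofibroblast-like, mesothelial-like and macrophage-like cells, and their limits of 3.99, 7.66 and 1.13 CPM leave the order against cancer-like cells unresolved for the first 2 of these.

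**Figure D2:**
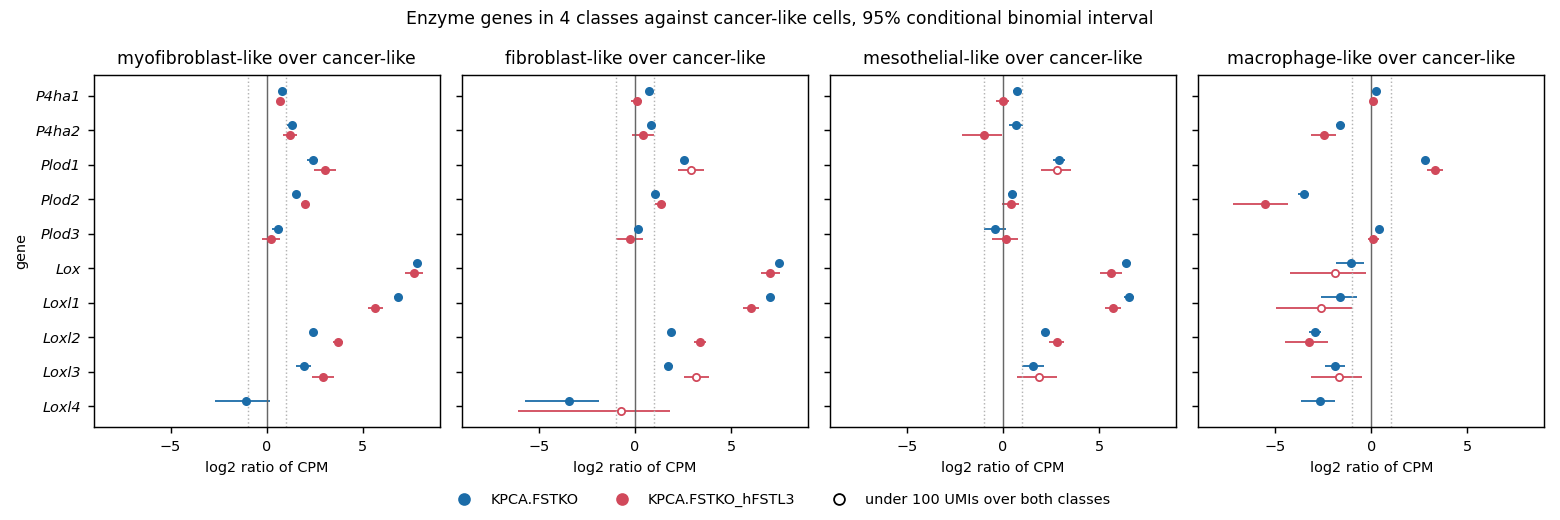
Ratio of each enzyme's level in myofibroblast-like, fibroblast-like, mesothelial-like and macrophage-like cells to its level in cancer-like cells (log2 axis), for each library, with 95% intervals as bars. Lox and Loxl1 lie far to the high side in the 3 stromal classes, Plod3 and P4ha1 stay near a ratio of 1, and Plod1 is the member on the high side in macrophage-like cells.

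Between myofibroblast-like and fibroblast-like cells no member was called. Lox was called lower in mesothelial-like cells than in both, and Plod2 lower there than in myofibroblast-like cells. No share of all genes was computed between stromal classes, so the numbers of members called are not read further. In KPCA.FSTKO, myofibroblast-like over fibroblast-like ratios were 1.22 (1.14 to 1.30) for Lox, 1.44 (1.29 to 1.61) for Loxl2, 1.40 (1.26 to 1.56) for Plod2 and 1.38 (1.14 to 1.65) for P4ha2. Loxl1 went the other way at 0.888 (0.805 to 0.979). None of these reached the 2-fold size. In KPCA.FSTKO_hFSTL3 the ratios were 1.52 for Lox, 1.58 for Plod2 and 0.768 for Loxl1, in the same directions. Without the top barcode of each class the ratio of Lox there was 1.17 (0.991 to 1.39). Over mesothelial-like cells, myofibroblast-like cells of KPCA.FSTKO had 2.60 (2.27 to 2.99) times as much Lox and 2.06 (1.71 to 2.50) times as much Plod2, and fibroblast-like cells 2.14 (1.88 to 2.44) times as much Lox. The same 3 ratios were called in KPCA.FSTKO_hFSTL3, at 4.10 (3.24 to 5.24), 3.04 (2.21 to 4.28) and 2.69 (2.08 to 3.50). Pericyte-like cells, the other contractile class, held less Lox than fibroblast-like cells, with a ratio of 0.273 (0.220 to 0.335), and more Loxl2, with a ratio of 1.56 (1.33 to 1.83).

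How much enzyme RNA there was for each unit of collagen RNA differed by enzyme type. Fibrillar collagen genes summed to 23137 CPM in myofibroblast-like, 22279 in fibroblast-like, 13586 in mesothelial-like, 838 in cancer-like and 138 in macrophage-like cells of KPCA.FSTKO. The 5 lysyl oxidases together gave 5.86 (5.61 to 6.12) UMIs per 100 fibrillar collagen UMIs in myofibroblast-like, 5.27 (5.14 to 5.41) in fibroblast-like, 5.96 (5.53 to 6.41) in mesothelial-like, 9.28 (9.07 to 9.49) in cancer-like and 9.83 (8.31 to 11.6) in macrophage-like cells. The intervals of the 3 stromal classes lie below those of cancer-like and macrophage-like cells. Those of myofibroblast-like and mesothelial-like cells overlap, as do those of cancer-like and macrophage-like cells. All of these ratios differ by less than 2-fold, while the collagen level itself ran from 23137 down to 138 CPM. The oxidase behind the sum was not the same, since Loxl2 made up 55.1 of the 77.8 oxidase CPM of cancer-like cells and Lox 704 of the 1356 CPM of myofibroblast-like cells. Nor was the collagen, with Col3a1 at 688 of the fibrillar CPM of cancer-like cells and Col1a1 at 40.9. Prolyl 4-hydroxylase subunits, in contrast, gave 1.98 (1.84 to 2.13) per 100 in myofibroblast-like, 1.86 (1.78 to 1.94) in fibroblast-like and 2.91 (2.62 to 3.23) in mesothelial-like cells, but 29.1 (28.7 to 29.5) in cancer-like and 185 (174 to 197) in macrophage-like cells. Lysyl hydroxylases behaved like them, at 1.89, 1.53, 2.03, 19.3 and 109.5 per 100 in that order of classes. The hydroxylases were thus far more abundant relative to collagen in the collagen-poor classes.

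In KPCA.FSTKO_hFSTL3 the hydroxylases were again higher relative to collagen in cancer-like and macrophage-like cells. The lysyl oxidases stood at 6.45, 5.70, 5.14, 10.2 and 14.2 UMIs per 100 fibrillar collagen UMIs in myofibroblast-like, fibroblast-like, mesothelial-like, cancer-like and macrophage-like cells. These span more than 2-fold, and the macrophage-like value of 14.2 (8.41 to 22.7) rests on 20 oxidase UMIs. The prolyl 4-hydroxylase subunits stood at 1.74, 1.15, 1.45, 50.2 and 413, and the lysyl hydroxylases at 1.87, 1.33, 1.42, 28.7 and 237. In fibroblast-like cells the prolyl 4-hydroxylases thus lay above the lysyl hydroxylases in KPCA.FSTKO, with 1.86 (1.78 to 1.94) against 1.53 (1.46 to 1.61), and below them in KPCA.FSTKO_hFSTL3, where the intervals overlap, 1.15 (0.961 to 1.37) against 1.33 (1.12 to 1.56). In myofibroblast-like cells the intervals of both enzyme types overlap in each library. The macrophage-like ratios rest on few collagen UMIs, 141 in this library, and how much of that collagen RNA was free RNA was not tested. UMIs of 3′ tags are counted per molecule and are not divided by length.

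**Figure D3:**
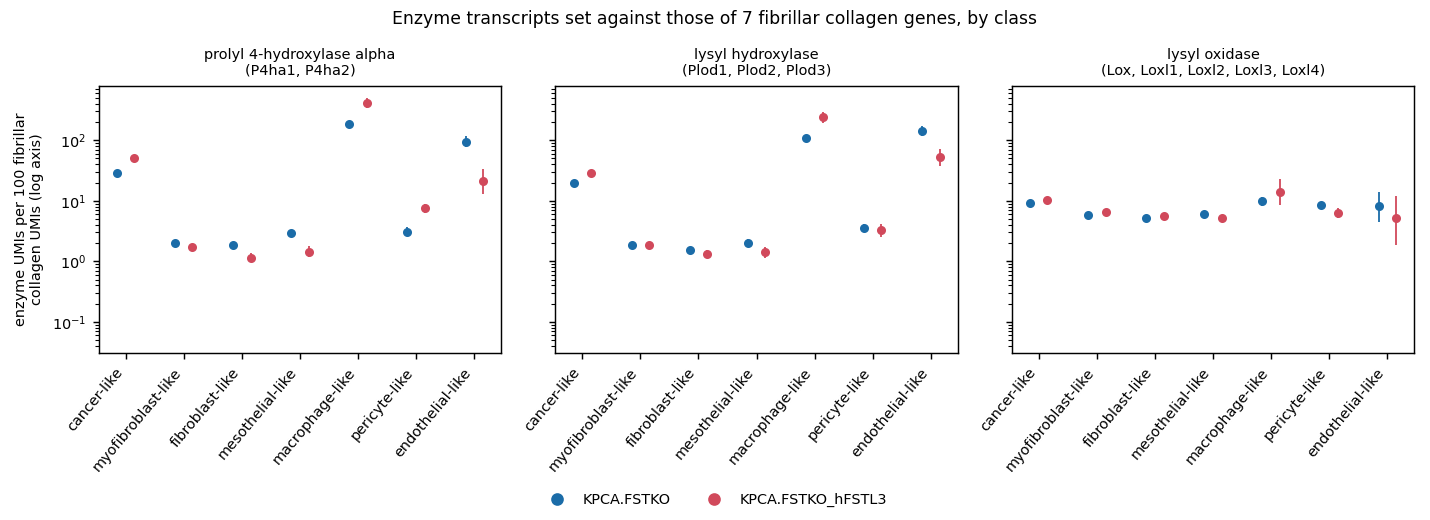
UMIs of prolyl 4-hydroxylase subunits (P4ha1, P4ha2), lysyl hydroxylases (Plod1, Plod2, Plod3) and lysyl oxidases (Lox to Loxl4) per 100 UMIs of fibrillar collagen genes (log axis), in the 5 main classes and in pericyte-like and endothelial-like cells, by library, with 95% intervals as bars. The oxidase points stay between 5.14 and 14.2 over the 5 main classes, while the hydroxylase points lie at or below 2.91 in the 3 stromal classes and at or above 19.3 in cancer-like cells.

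The rest of the collagen pathway was counted from 7 lists of genes. Against cancer-like cells of KPCA.FSTKO, the fibrillar collagens were called higher for 6 of 7 genes in myofibroblast-like, 6 in fibroblast-like and 6 in mesothelial-like cells, against 11.5%, 12.8% and 13% of all genes. They were called lower for 0, 1 and 1 genes there, against 18.8%, 16.6% and 22.3%, and lower for 5 and higher for 0 in macrophage-like cells, against 30.9% and 15.8%. The median log2 ratios of the fibrillar collagens in the stromal classes were 4.85, 4.35 and 3.35, beside the medians of all genes given above. The same shares and medians of all genes stand behind the counts of the other lists. Col1a2, a chain of type I collagen, stood at 4612 CPM in myofibroblast-like and 15.7 in cancer-like cells, and Col5a2 of type V collagen at 1328 and 6.70. Col11a1, a minor fibrillar chain and the gene called lower in fibroblast-like and mesothelial-like cells, stood at 17.6 CPM in myofibroblast-like, 15.9 in fibroblast-like, 1.08 in mesothelial-like and 32.7 in cancer-like cells. Basement membrane collagens were higher for 2 of 4 genes and lower for 1 in myofibroblast-like cells, and lower for 4 of 4 in macrophage-like cells, with Col4a1 at 1047 CPM in myofibroblast-like, 62.3 in cancer-like and 13.5 in macrophage-like cells. The gene called lower in myofibroblast-like cells was Col18a1, at 107 CPM against 269.6 in cancer-like cells.

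The other enzymes and helpers of the pathway were mixed in direction, with chaperones mostly higher in stromal cells. Of the other prolyl and lysyl modifying enzymes, 6 of 9 were higher in myofibroblast-like, 4 in fibroblast-like and 4 in mesothelial-like cells, while 1, 2 and 2 were lower. Their median log2 ratios were 1.23, 0.94 and 0.96, and in macrophage-like cells 5 were lower and 1 higher. P3h3, a prolyl 3-hydroxylase, stood at 76.1 CPM in myofibroblast-like and 4.57 in cancer-like cells. P3h2 went the other way, at 1.22 and 6.48 CPM, and P4ha3, the third alpha isoform of prolyl 4-hydroxylase, was at 12.8 CPM in myofibroblast-like, 14.4 in cancer-like and at 0 UMIs in mesothelial-like cells. Among collagen chaperones and secretion factors, 6 of 7 were higher in myofibroblast-like, 5 in fibroblast-like and 6 in mesothelial-like cells and 0 lower in any of them, and 4 were lower and 1 higher in macrophage-like cells. Fkbp10, which assists the lysyl hydroxylase Plod2, stood at 158 CPM in myofibroblast-like, 9.10 in cancer-like and 0.673 in macrophage-like cells. Serpinh1, the collagen chaperone also called Hsp47, stood at 883, 214 and 22.2 CPM.

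Procollagen processing genes were higher for 3 of 6 in each stromal class. They were lower for 1 in myofibroblast-like, 0 in fibroblast-like, 2 in mesothelial-like and 5 in macrophage-like cells, with stromal medians of 0.42, 1.26 and 1.78 on the log2 scale. Adamts2, which removes the amino-terminal propeptide, stood at 188 CPM in myofibroblast-like and 1.31 in cancer-like cells, while Pcolce2, an enhancer of the enzyme that removes the carboxy-terminal propeptide, stood at 4.87 and 14.0. Elastic fiber genes, whose elastin is the other substrate of lysyl oxidases, were higher for 4 of 5 genes in myofibroblast-like and 5 of 6 in fibroblast-like cells and 2 of 4 in mesothelial-like cells, and lower for 4 of 4 in macrophage-like cells. Fbn1, which encodes fibrillin, stood at 501 CPM in myofibroblast-like and 7.72 in cancer-like cells, and Eln, which encodes elastin, at 105 and 2.86. The hypoxia response list gave 2 of 14 genes higher and 0 lower in myofibroblast-like cells, the former close to the 11.5% of all genes, with the carbonic anhydrase Car9 at 74.9 CPM against 18.2, and 1 higher and 2 lower in macrophage-like cells, which are smaller shares than the 15.8% and 30.9% of all genes. In KPCA.FSTKO_hFSTL3 the myofibroblast-like cells had 6 of 7 fibrillar collagens, 6 of 8 other modifying enzymes, 5 of 5 chaperones and secretion factors and 3 of 14 hypoxia genes called higher than cancer-like cells, against 10.3% of all genes. Called lower were 1 fibrillar collagen, 0 other modifying enzymes, 0 chaperones and 2 hypoxia genes, against 20.9%.

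Cells of a class were next ordered by the share of their UMIs on the 14 genes of that hypoxia list, none of which is a member, and split into lower, middle and upper tertiles. In cancer-like cells of KPCA.FSTKO the list stood at 2176, 4343 and 7607 CPM over the tertiles. P4ha2 stood at 23.3, 38.6 and 63.5 CPM and Plod2 at 64.3, 93.5 and 156 CPM. Both were more than 2-fold higher in the upper than in the lower tertile, with ratios of 2.72 (2.51 to 2.96) and 2.42 (2.30 to 2.55). Lox had a ratio of 2.39 (1.78 to 3.26) at levels of 1.92 and 4.59 CPM, P4ha1 one of 1.62 (1.57 to 1.68) and Loxl2 one of 1.36 (1.28 to 1.45). These Lox levels are low, and without the top barcode of each tertile its ratio was 1.53 (1.11 to 2.14), which ends the call. Loxl1 at 0.429 (0.313 to 0.582) and Loxl3 at 0.331 (0.282 to 0.387) were lower in the upper tertile. Loxl1 was as low as Lox here, at 3.90, 3.16 and 1.67 CPM over the tertiles, and without the top barcode of each tertile its ratio was 0.433 (0.310 to 0.599). In all 3 members were called higher and 2 lower, against 1.77% and 7.37% of all genes. The upper tertile also held more UMIs per cell, a median of 28742 against 21883 in the lower, and its part was not tested.

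P4ha1 or P4ha2 was among the members called higher in each of the other classes split. In fibroblast-like cells of KPCA.FSTKO, P4ha1 stood at 129, 349 and 501 CPM over the tertiles, a ratio of 3.89 (3.32 to 4.58), and P4ha2 had a ratio of 3.30 (2.47 to 4.46), while Plod2 missed the size rule at 1.58 (1.36 to 1.84). Lox stood at 448, 414 and 862 CPM there, a ratio of 1.92 (1.75 to 2.11) that missed the size rule, and Loxl1 went down from 586 through 337 to 196 CPM, a ratio of 0.334 (0.294 to 0.379). Lox and Loxl1, so alike between classes, thus ran in opposite directions within fibroblast-like cells. Members called higher numbered 2 and lower 2 of 9, against 4.2% and 8.31% of all genes. In myofibroblast-like cells of KPCA.FSTKO, with 28 to 29 cells a tertile, Lox had a ratio of 3.21 (2.74 to 3.76), P4ha1 of 3.04 (2.39 to 3.90), Plod2 of 2.64 (2.11 to 3.33) and P4ha2 of 2.50 (1.70 to 3.76), whereas Loxl1 had one of 0.526 (0.418 to 0.660), or 0.494 (0.387 to 0.627) without the top barcode of each tertile, which meets the size rule. That made 4 of 6 members higher against 6.49% of all genes, and 0 lower against 6.49%.

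Macrophage-like cells of KPCA.FSTKO had 1 of 4 members higher against 2.25% of all genes and 0 lower against 3.14%. The member was P4ha2, with a ratio of 3.14 (2.07 to 4.92), and P4ha1 had one of 1.16 (1.05 to 1.27). In KPCA.FSTKO_hFSTL3, cancer-like cells gave 3 of 5 members higher against 2.06% and 0 lower against 7.39% of all genes, namely P4ha2 at 2.85 (2.21 to 3.72), P4ha1 at 2.61 (2.31 to 2.95) and Plod2 at 2.01 (1.69 to 2.39). P4ha1 rose over these tertiles, at 118, 147 and 308 CPM. Plod2 stood at 65.5, 53.9 and 131 CPM and P4ha2 at 26.8, 24.0 and 76.4, both with overlapping intervals in the lower and middle tertiles. Macrophage-like cells of that library gave 1 of 2 higher against 4.63% and 0 lower against 5.26%, with P4ha1 at 2.24 (1.70 to 2.96). P4ha1 there stood at 93.8, 308 and 209.7 CPM over tertiles of 46 to 47 cells, so the middle tertile was the highest and the level did not follow the hypoxia share. The median log2 ratios of the members with enough UMIs were above those of all genes in each of these 6 splits, for example 1.36 against -0.14 in myofibroblast-like cells.

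**Figure D4:**
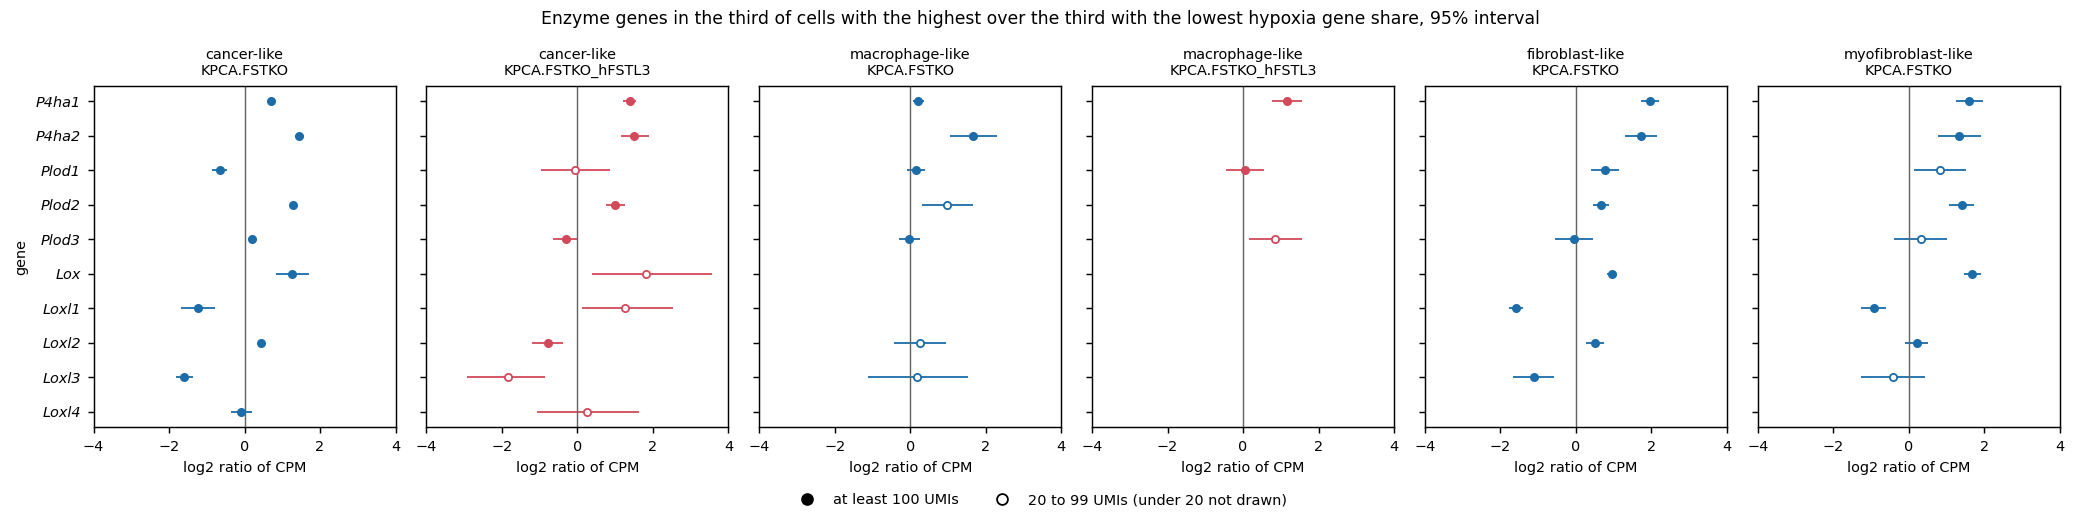
Ratio of each enzyme's level in the upper over the lower tertile of cells by their share of UMIs on the hypoxia response list (log2 axis), by cell class and library, with 95% intervals as bars, filled points for at least 100 UMIs and open points for 20 to 99. P4ha1, P4ha2 and Plod2 lie on the high side in cancer-like, fibroblast-like and myofibroblast-like cells of KPCA.FSTKO, and Loxl1 lies on the low side in those 3, in cancer-like cells at levels of only 3.90 and 1.67 CPM.

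Between the libraries few members differed by the size rule within a class. In cancer-like cells 1 of 10 was called higher in KPCA.FSTKO_hFSTL3 and 0 lower, against 3.66% and 6.47% of all genes. The member was Loxl1, at 2.82 CPM in KPCA.FSTKO and 6.90 in KPCA.FSTKO_hFSTL3, a ratio of 2.45 (1.85 to 3.19). It rested on 67 UMIs, of which a single barcode held 25.4%, and its log2 ratio turned from 1.29 to -0.54 when classes came from clusters. It rose to 4.75 when the 5% of barcodes with most UMIs of the gene were left out. That trim selects on the gene itself at few UMIs, so this value is no check of the ratio. Loxl2 stood at 55.1 and 28.3 CPM, a ratio of 0.514 (0.454 to 0.580) that missed the size rule and met it with TMM scaling (log2 -1.05). P4ha1 had a ratio of 1.00 (0.954 to 1.05). The other ratios lay between 0.559 for Loxl4 and 1.33 for Lox, and Plod1 had one of 0.598 (0.465 to 0.758). The directions of Lox and Plod1 turned with the processing. The log2 ratio of Lox, 0.41, went to -0.69 without the cells richest in acinar RNA, to -0.38 with no barcode filter and to -0.12 with classes from clusters. Without the top 5% of barcodes it was 3.28, but that trim again selects on the gene itself and is no check of the direction. The log2 ratio of Plod1, -0.74, went to -1.09 with classes from clusters and to 0.19 with no exclusion of cells with markers of unrelated classes.

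In the stromal classes no member was called. In myofibroblast-like cells 0 of 9 were higher against 2.14% of all genes and 0 lower against 2.6%, with Lox at 1.19 (1.08 to 1.31) and Loxl2 at 1.28 (1.10 to 1.49). Without the top barcode of each library the ratio of Lox turned to 0.877 (0.780 to 0.985). In fibroblast-like cells 0 of 9 were higher against 2.09% and 0 lower against 4.13%, with Loxl2 at 1.49 (1.24 to 1.78), Loxl3 at 1.93 (1.26 to 2.85), or 1.40 (0.832 to 2.23) without the top barcodes, and P4ha1 at 0.638 (0.516 to 0.782). In mesothelial-like cells 0 of 6 were higher against 2.98% and 0 lower against 4.69%, with Lox at 0.755 (0.580 to 0.975) and P4ha1 at 0.610 (0.469 to 0.785). Macrophage-like cells gave 1 of 5 lower against 2.71% and 0 higher against 1.7%. This was Plod2, at 9.50 and 1.88 CPM, the latter from 5 UMIs, a ratio of 0.198 (0.0630 to 0.475). The members' median log2 ratio between libraries was -0.15 in cancer-like, 0.10 in myofibroblast-like, -0.08 in fibroblast-like, -0.40 in mesothelial-like and -0.22 in macrophage-like cells, beside -0.01, -0.01, 0.04, 0.07 and 0.08 over all genes. These ratios compare the libraries and not the genotypes, and the acinar RNA of each class given above differs between the libraries in the same cells.

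Of the pathway lists in cancer-like cells, some genes were called between the libraries, to be read against the 3.66% of all genes called higher and 6.47% called lower. Of the fibrillar collagens 2 of 7 were higher and 1 lower, with Col1a2 at 15.7 CPM in KPCA.FSTKO and 36.3 in KPCA.FSTKO_hFSTL3. Collagen chaperones and secretion factors were lower for 2 of 7, and procollagen processing genes were higher for 2 of 6, among them Pcolce2 at 14.0 and 78.8 CPM. On the hypoxia response list 4 of 14 were lower, with a median log2 ratio of -0.65, and Car9 stood at 18.2 and 4.74 CPM. Elastic fiber genes were lower for 1 of 4, and 0 of 9 other modifying enzymes and 0 of 4 basement membrane collagens were called in either direction. In the other classes the hypoxia list was lower for 1 of 12 genes in myofibroblast-like, 4 of 14 in fibroblast-like, 5 of 8 in mesothelial-like and 2 of 13 in macrophage-like cells. Shares of all genes called lower were 2.6%, 4.13%, 4.69% and 2.71%. The list's median log2 ratios were -0.50, -0.72, -1.28 and -0.42, with 0 genes called higher.

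**Figure D5:**
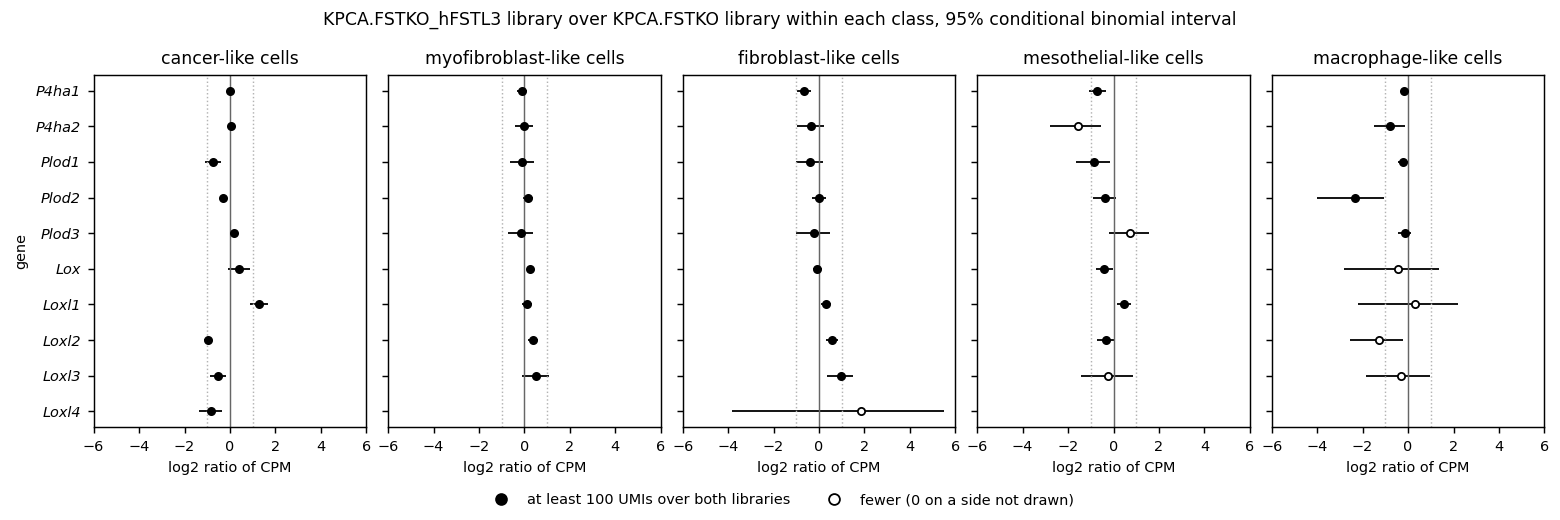
Ratio of each enzyme's level in KPCA.FSTKO_hFSTL3 to its level in KPCA.FSTKO (log2 axis) within each of the 5 main cell classes, with 95% intervals as bars and a line at a ratio of 1. Most points lie close to the line, with Loxl1 in cancer-like cells on the high side (on the low side when classes came from clusters) and Loxl2 in cancer-like and Plod2 in macrophage-like cells on the low side.

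The pattern of each member over classes and libraries was set against that of 12083 other genes, over 17 sums of at least 20 cells, by Pearson correlation of log2(CPM + 1). These points share libraries and depth, and the values are descriptions. Nearest to Lox were Vgll3 (r = 0.98), Col5a2 (0.98) and Tmem45a (0.97), and nearest to Loxl1 were Col1a1 (0.98), Mfap5 (0.98) and Col1a2 (0.98), of which Mfap5 is also a fibroblast marker of the gate. Loxl2 was nearest to Loxl3, another member, at 0.96, and then to Map1a and Col6a2. For Loxl3 the nearest were Arhgef25, Loxl2 and Bmp1, a propeptidase of procollagens that also cuts pro-Lox. Plod2 was nearest to Phldb2 (0.97), Dclk1 and Lhfp, and P4ha2 to Kank2 (0.93), Serf1 and Layn. The nearest genes of Plod1 were Lrrc58 (0.94), Bach1 and Slc36a4, those of Plod3 were D11Wsu47e (0.91), Rusc2 and Nucb2, those of P4ha1 were AU022252 (0.94), Chst12 and Dubr, and those of Loxl4 were Dlx1 (0.89), Lgr6 and Nyap1.

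Among the members themselves, Lox and Loxl1 had r = 0.93 and Lox and Plod2 0.83, while Lox and P4ha1 had 0.29. Plod1 was closer to P4ha1, at 0.73, than to Plod2, at 0.19. Among the lysyl hydroxylases Plod1 and Plod3 had r = 0.66, and Plod2 and Plod3 had 0.13.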

How the data were processed

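Single-cell RNA-seq (10x Genomics 3′ kit) was made from omental tumors dissociated with collagenase and DNase, with 4 tumors pooled into 1 library per group. The deposited values are raw UMI counts per gene and barcode, which the authors made with Cell Ranger against an mm10 reference and which hold filtered barcodes only. The processing notes name version 3.1.0 and the matrix header names 7.2.0. The methods state default settings, under which both versions keep reads of the gene's strand only. Version 7.2.0 then counts intronic reads and version 3.1.0 does not, so whether they were counted is not settled.

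The files held 7582 barcodes for KPCA.FSTKO and 4244 for KPCA.FSTKO_hFSTL3, the numbers given in the methods for cells after quality control. The filter those methods state (mitochondrial share under 20%, more than 200 and fewer than 8000 genes) left 6777 and 4041, with 142160061 and 69751304 UMIs. The libraries shared 10 of these barcode sequences.

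Classes came from marker genes. A marker was raised in a cell at 3 times its mean level over the libraries, or at that level for cancer, acinar and erythroid markers. A cell with at least 3 raised markers of a class was placed there. Barcodes with at least 5 raised acinar markers were mixed, and cells with at least 5 raised cancer markers plus another class, or with unrelated classes, stayed unassigned (1001 and 106 cells with those that passed no class). These cuts were set after seeing the data, and members and lists were chosen with earlier results of these data known. At exactly 3 markers lay 589 cancer-like, 17 myofibroblast-like, 60 fibroblast-like, 7 mesothelial-like and 51 macrophage-like cells of KPCA.FSTKO. No doublets were removed in the main analysis. Scrublet marked 90 cells (1.33%) in the first library and 1 in the second, where it was taken not to have worked.

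CPM of a class is the sum of a gene's UMIs in its cells over the sum of all their UMIs. Levels have exact Poisson intervals, shares exact Clopper-Pearson intervals and ratios conditional binomial intervals, all at 95% and for counting error only. A count of 0 was bounded at 3 UMIs. The size rule was also run on simulated counts with known fold changes. Of unchanged genes it called 5.72% for myofibroblast-like over cancer-like cells of KPCA.FSTKO and 0.474% between the libraries in cancer-like cells. It recovered 100% of raised genes in both, and 95% and 98% of lowered ones. Named were all members, Fst and Fstl3, up to 4 genes a list with the largest class ratios that pass the size rule, and the 3 genes most like each member among genes with at least 500 UMIs. Coordinates are of GENCODE on GRCm38, and promoters are from RefSeq on GRCm38.p6. Python 3.11.15 with numpy 2.4.6, scipy 1.17.1, pandas 2.3.3 and scanpy 1.11.5 was used, and edgeR 4.0.16 gave TMM scaling factors only. Alternatives changed the barcode filter, gate, class definition, scaling, weight of cells, doublets, cells rich in acinar RNA, top barcodes and both limits of the size rule, and leaving out 1 top barcode a side was added after seeing the data. Not every alteration of the KPCA line is reported here.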

Additional observations from a re-analysis of the deposited data

Results flagged for a closer look

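Several members moved in opposite directions between the libraries depending on the class, and none of these differences was tested. The level of Lox in KPCA.FSTKO_hFSTL3 over that in KPCA.FSTKO was 1.19 (1.08 to 1.31) in myofibroblast-like and 0.755 (0.580 to 0.975) in mesothelial-like cells. A single barcode held 36.6% of the Lox UMIs of myofibroblast-like cells in KPCA.FSTKO_hFSTL3, and without the top barcode of each library their ratio was 0.877 (0.780 to 0.985), in the same direction as in mesothelial-like cells. Loxl2 had ratios of 1.28 (1.10 to 1.49) in myofibroblast-like and 1.49 (1.24 to 1.78) in fibroblast-like cells but 0.514 (0.454 to 0.580) in cancer-like cells, and one of 0.800 (0.610 to 1.04) in mesothelial-like cells. Loxl3 had ratios of 1.93 (1.26 to 2.85) in fibroblast-like and 0.698 (0.539 to 0.891) in cancer-like cells, and without the top barcodes the fibroblast-like ratio was 1.40 (0.832 to 2.23). The stromal classes of KPCA.FSTKO_hFSTL3 behind these values held 22 myofibroblast-like, 24 fibroblast-like and 13 mesothelial-like cells.

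Within cancer-like cells, the upper over lower tertile of the hypoxia share gave opposite directions in the libraries for a pair of oxidases, again untested. Loxl1 had a ratio of 0.429 (0.313 to 0.582) in the KPCA.FSTKO library and one of 2.38 (1.09 to 5.73) in the KPCA.FSTKO_hFSTL3 library, where a single barcode held 25.4% of its UMIs. The second ratio rests on 9 and 28 UMIs, 37 in all and under the minimum of 100, and the tertiles ran from 3.13 through 9.75 to 7.46 CPM, the middle one being highest. Without the top barcode of each tertile the ratio was 1.22 (0.433 to 3.72). Loxl2 had ratios of 1.36 (1.28 to 1.45) and 0.582 (0.437 to 0.773).

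The mixed barcodes, which were kept out of the classes, held 65.5% of all UMIs of the 10 members in KPCA.FSTKO_hFSTL3, 18494 of 28219. The classes described for that library therefore rest on the smaller part of its RNA for these enzymes. The alternative with no exclusion did use part of the mixed barcodes of that library, placing 664 of them in cancer-like, 101 in macrophage-like, 66 in fibroblast-like, 43 in myofibroblast-like and 5 in mesothelial-like cells.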

How the results depend on the processing

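Of all single-member values recomputed under the alternatives, 1 called value reversed, 169 moved by more than their counting interval and 672 did not. Shares of all genes were not recomputed under the alternatives, so the counts in this section only describe how the calls moved. Members called higher than in cancer-like cells of KPCA.FSTKO ranged from 6 to 8 in myofibroblast-like, 5 to 8 in fibroblast-like and 5 to 7 in mesothelial-like cells. Members called lower in macrophage-like cells ranged from 5 to 7. In KPCA.FSTKO_hFSTL3 members called higher ranged from 5 to 8 in myofibroblast-like and 3 to 6 in fibroblast-like cells. In myofibroblast-like cells the members called lower went from 1 to 0 in KPCA.FSTKO with no barcode filter, and from 0 to 1 in KPCA.FSTKO_hFSTL3 with a minimum of 20 UMIs. In mesothelial-like cells of KPCA.FSTKO_hFSTL3 the members called higher went from 3 to 5 with no barcode filter, with no exclusion of cells with markers of unrelated classes and with a minimum of 20 UMIs. Those called lower there went from 0 to 1 with TMM scaling, the mean of per-cell CPM, a minimum of 20 UMIs and a ratio of at least 1.5. In macrophage-like cells of that library the members called lower went from 3 to 6 with no exclusion and to 7 with a minimum of 20 UMIs.

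The comparisons among stromal classes and the hypoxia tertiles were recomputed only without the top barcodes, and not with other class definitions. With classes from clusters KPCA.FSTKO held 160 myofibroblast-like, 73 fibroblast-like and 149 mesothelial-like cells, against 85, 279 and 44 in the main analysis. Of the comparisons between libraries, those outside cancer-like cells were likewise recomputed only without the top barcodes. In cancer-like cells the 1 member called higher, Loxl1, went to 0 with no barcode filter, a stricter gate, classes from clusters, the cells with the highest acinar share left out and the 5% of barcodes with most UMIs of the gene left out. It went to 2 with no exclusion. The log2 ratio of Loxl1 reversed to -0.54 with classes from clusters. Members called lower went from 0 to 1 with classes from clusters, TMM scaling, the mean of per-cell CPM, the acinar-rich cells left out and the top 5% left out, to 2 with no exclusion and to 3 at a ratio of at least 1.5. Leaving out the single barcode with most UMIs of the gene on each side, an alternative chosen after seeing the data, also took the members called higher from 1 to 0 and lower from 0 to 1 here. It took those called lower from 0 to 1 in mesothelial-like over cancer-like cells of KPCA.FSTKO_hFSTL3 and in the hypoxia tertiles of myofibroblast-like cells. Between the libraries in pericyte-like cells, 9 of them in KPCA.FSTKO_hFSTL3, it took the members called from 1 to 0 in both directions. No share of all genes is given for that comparison, so its counts are not read further. The cause of these moves was not tested. TMM scaling shifted all log2 ratios by -0.18 in mesothelial-like and -0.11 in fibroblast-like cells of KPCA.FSTKO_hFSTL3 and by 0.14 in macrophage-like cells of KPCA.FSTKO, and by less than 0.1 elsewhere. No paired analysis was possible because there is 1 library per genotype, and no library could be left out. Depth limits Loxl4, Loxl3 and the stromal classes of KPCA.FSTKO_hFSTL3.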

Other observations

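Outside the 5 main classes the enzymes were also counted in vessel-associated cells of KPCA.FSTKO. Pericyte-like cells (35 cells), which wrap small vessels, held 158 (127 to 193) CPM of Lox, 131 (103 to 163) of Loxl1, 58.7 (40.9 to 81.7) of Loxl3 and 151 (121 to 186) of Plod2. Endothelial-like cells (92 cells) held 208 (177 to 243) CPM of P4ha1 and 66.7 (49.5 to 87.9) of Plod2, with 2 UMIs of Lox and 0 of Loxl1. Their Plod1 was 19.4 (16.5 to 22.6) times the cancer-like level. In pericyte-like cells of KPCA.FSTKO_hFSTL3 (9 cells) P4ha1 stood at 604 (509 to 711) CPM against 183 (150.2 to 221) in KPCA.FSTKO. A single barcode held 68.8% of those UMIs, and without the top barcode of each library the ratio went from 3.30 to 1.36 (0.930 to 1.97).

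The mixed barcodes of KPCA.FSTKO_hFSTL3 held 39.9 CPM of Lox, 37.4 of Loxl1, 40.9 of Plod2, 98.2 of P4ha1 and 36.0 of P4ha2. Lox and Loxl1 lay between the cancer-like and the stromal levels of that library, and P4ha1 lay below every one of its 5 main classes. Their acinar list stood at 10724 CPM and their median mitochondrial share at 11.5%.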
